A study of Mus musculus with 4 samples.

Results

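The genes described here make fatty acids and store them as triglyceride in brown adipose tissue (BAT in the labels), a fat tissue specialised for making heat. They were chosen by name, with earlier results of these data known. The list held 39 genes of the pathway in 9 steps. Each was read from its brightest probe set on average, among probe sets annotated to 1 gene symbol. Of the 39 genes, 36 were measured, out of 22180 genes on the table. The study has 2 samples from mice without Tsku (labelled KO) and 2 from wild-type (WT) mice, with 1 whole-transcript array each. All 4 came from male C57BL/6 mice aged 4 months and fed chow. Tsku encodes tsukushi, a secreted small leucine-rich proteoglycan. It had no listed probe set, so the deletion could not be checked here, and the labels do not say how the allele was made. Beyond calling the replicates biological, they name no individual animals. The p-values therefore rest only on the spread between these samples, with each gene's own spread drawn toward that of all genes. Part of that spread may be technical.

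In de novo lipogenesis, cytosolic citrate or acetate is turned into acetyl-CoA, carboxylated to malonyl-CoA and condensed to palmitate with NADPH as reductant. Palmitate is then desaturated, elongated, activated to acyl-CoA and joined to glycerol 3-phosphate in stages that end with triglyceride. SREBP-1c and ChREBP are the main transcription factors of these genes, and brown fat is among the tissues that use the pathway most, since it refills its lipid droplets while it burns them.

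As background for all values, the arrays had medians of 0.56 to 0.58 log2 units, and between 50.2% and 53.4% of genes lay above background, set on each array at the 95th percentile of 1400 probe sets for odorant and pheromone receptors. Of the markers of the tissue, all 10 measured adipocyte genes and 9 of 10 brown adipocyte genes were above background on all 4 arrays. KO was compared with WT in limma across all genes, and differences are KO minus WT on the log2 scale. The number of arrays limits the precision: the 95% interval of a member extended by a median of 0.50 on each side. In bulk tissue, fewer cells of a type and less RNA per cell cannot be told apart.

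Fatty acid and triglyceride synthesis genes measured mostly higher in KO brown fat, by a large amount for Fasn and Pnpla3 and by small amounts for most of the others. Of the 36 measured members, 31 had a log2 difference above 0, among them Elovl1 at 0.0019, where 52.6% of all genes did. Both KO arrays lay above both WT arrays for 24 members, against 19.4% of all genes, and below both for 3, against 15.8% of all genes. The median log2 difference was 0.22 for the members and 0.02 for all genes. Among the 29 members above background on every array, 27 were higher, with a median of 0.24. Of the 9923 genes with that brightness, 51.0% were higher, with a median of 0.01. With limma and Benjamini-Hochberg adjustment over all genes, 0 members passed an adjusted p of 0.05, as did 0% of all genes, and 1234 genes had an unadjusted p under 0.05. At that unadjusted level 8 members were higher, against 2.89% of all genes, and 1 was lower, against 2.67%. The smallest adjusted p of a member was 0.872.

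**Figure D1:**
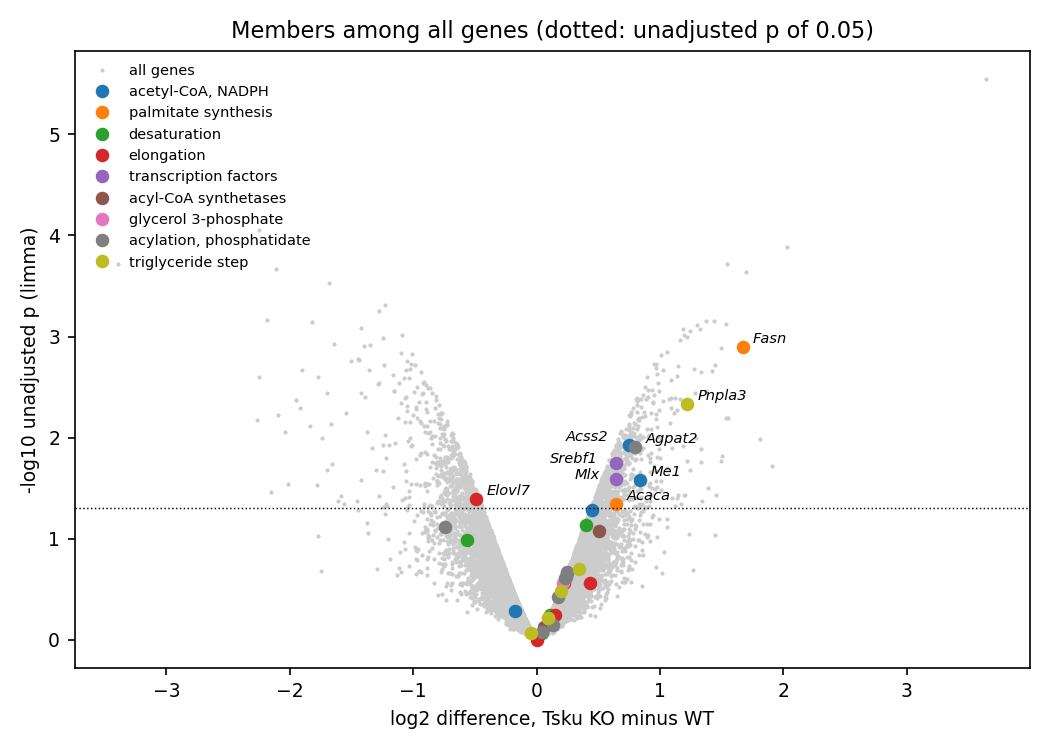
Log2 difference (KO minus WT, x axis) against -log10 of the unadjusted limma p (y axis) for all 22180 genes as small light grey dots and the 36 measured members as large dots coloured by step. The 8 members above the dotted line on the right are Fasn, Pnpla3, Acss2, Agpat2, Srebf1, Mlx, Me1 and Acaca, and Elovl7 is the member above it on the left.

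The transcription factors all measured higher in KO. Srebf1, which encodes SREBP-1 and so the insulin-responsive activator SREBP-1c, read 5.36 and 5.20 on the KO arrays, against 4.50 and 4.77 on the WT arrays. The genotypes did not overlap, and the log2 difference was 0.65 (SE 0.20, 95% interval 0.16 to 1.14, 1.57-fold, unadjusted p = 0.0178, limma adjusted p = 0.872). Mlx, the dimer partner that ChREBP needs to bind DNA, read 4.69 and 4.47 in KO, against 4.12 and 3.74 in WT. Its difference was also 0.65 (SE 0.22, 95% interval 0.11 to 1.18, unadjusted p = 0.0259, limma adjusted p = 0.872). Mlxipl, which encodes the glucose-sensing factor ChREBP itself, read 7.38 and 7.41 in KO, against 7.17 and 7.11 in WT. Its arrays were also apart by genotype, with a smaller difference of 0.25 (95% interval -0.19 to 0.69).

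The enzymes that supply acetyl-CoA and NADPH followed, 3 of 4 of them higher. Acss2, the cytosolic and nuclear acetyl-CoA synthetase that uses acetate, read 5.75 and 5.89 in KO, against 5.25 and 4.90 in WT. That is a log2 difference of 0.75 (SE 0.21, 95% interval 0.23 to 1.26, 1.68-fold, unadjusted p = 0.0119, limma adjusted p = 0.872), with no overlap between the genotypes. Its mitochondrial paralog Acss1, which feeds acetate to oxidation, read 6.45 and 6.77 in KO, against 7.05 and 6.52 in WT, and the arrays overlapped (log2 difference -0.17, 95% interval -0.79 to 0.45). The intervals of the paralogs overlap, and the difference between them was not tested. Me1, the cytosolic malic enzyme that makes NADPH, read 7.21 and 6.45 in KO, against 6.04 and 5.94 in WT. Its difference was 0.84 (SE 0.28, 95% interval 0.14 to 1.53, 1.79-fold, unadjusted p = 0.0262, limma adjusted p = 0.872). KO replicate 1 lay far above KO replicate 2 for this gene, by 0.76, and without KO replicate 1 the difference was 0.46 (unadjusted p = 0.0909). Acly, the citrate lyase that makes cytosolic acetyl-CoA from citrate, read 7.23 and 7.10 in KO, against 6.68 and 6.76 in WT, with a difference of 0.45 (95% interval -0.0044 to 0.90).

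Palmitate synthesis held the member with the largest difference. Fasn, the fatty acid synthase that builds palmitate from malonyl-CoA, read 8.96 and 8.28 in KO, against 6.74 and 7.16 in WT. The means were 8.62 ± 0.48 in KO and 6.95 ± 0.30 in WT (SD, n = 2 each). The log2 difference of 1.67 (SE 0.29, 95% interval 0.95 to 2.39) is 3.18-fold and ranks 6 among the increases of all 22180 genes and 29 by p (unadjusted p = 0.00128, limma adjusted p = 0.872). Acaca encodes acetyl-CoA carboxylase 1, the cytosolic enzyme whose malonyl-CoA goes into palmitate. It read 7.85 and 7.28 in KO, against 6.79 and 7.06 in WT, a difference of 0.64 (SE 0.26, 95% interval 0.02 to 1.27, unadjusted p = 0.0456, limma adjusted p = 0.872). Without KO replicate 1 the difference was 0.36 (unadjusted p = 0.205), and without KO replicate 2 it was 0.93. Acacb, the carboxylase at the mitochondrial surface whose malonyl-CoA restrains fatty acid oxidation, read 6.64 and 6.68 in KO, against 6.58 and 6.54 in WT. Its difference was 0.10 (95% interval -0.34 to 0.54), an interval that overlaps that of Acaca, and the difference between the carboxylases was not tested.

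**Figure D2:**
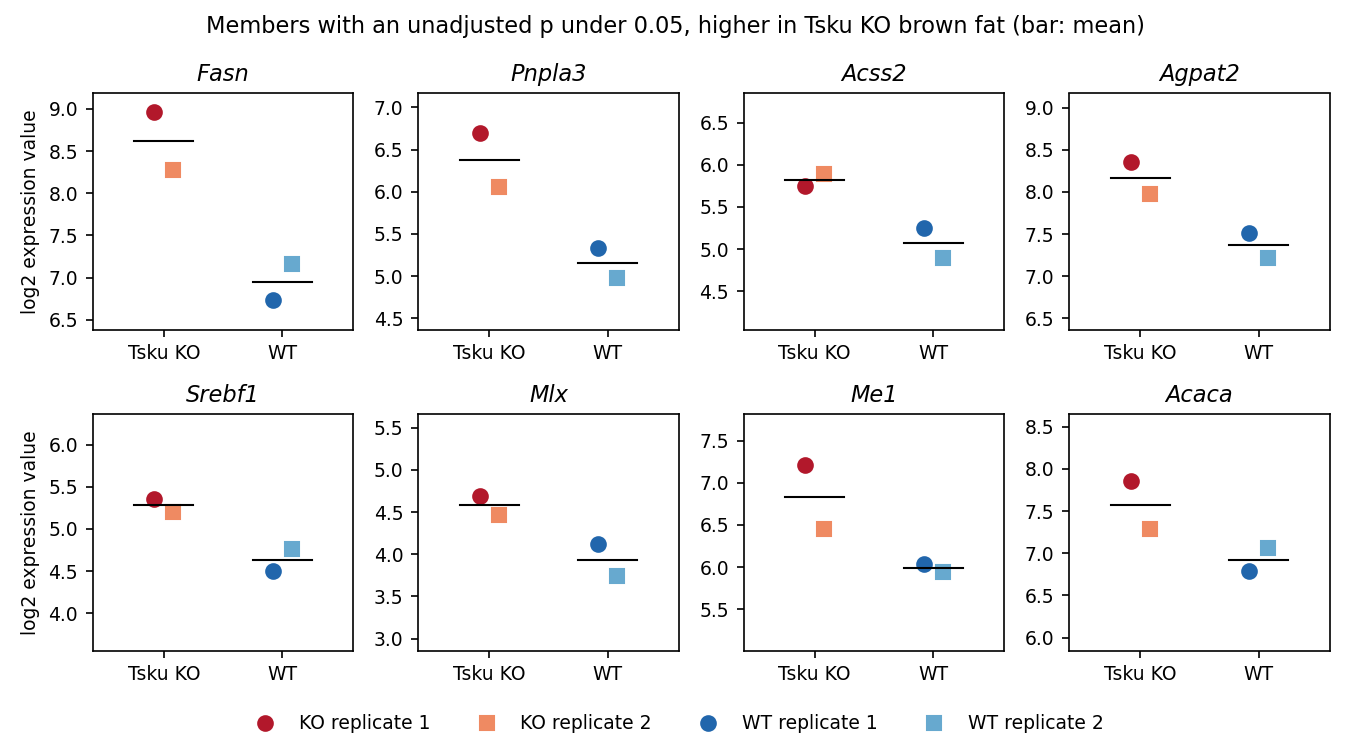
Log2 expression value (y axis) on each array for the 8 members with a higher mean in KO and an unadjusted p under 0.05. KO is left of WT, points are arrays, black bars are the means of 2 arrays, and every panel spans the same number of log2 units. The KO points lie above the WT points in all 8 panels, and the KO replicates are apart by 0.68 for Fasn and 0.76 for Me1.

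The desaturases gave differences of both signs. Scd1, the main stearoyl-CoA desaturase, which makes oleate and palmitoleate, read 9.93 and 10.10 in KO, against 9.59 and 9.63 in WT. Its genotypes were apart, with a difference of 0.40 (95% interval -0.05 to 0.85). Fads2, the delta-6 desaturase of polyunsaturated fatty acids, lay on the other side: 2.91 and 3.69 in KO, against 3.78 and 3.95 in WT. Both KO arrays were below both WT arrays, KO replicate 1 by far more than KO replicate 2, and the difference was -0.56 (95% interval -1.27 to 0.15). Its partner Fads1, the delta-5 desaturase, differed by 0.11. Scd3, a desaturase known mainly from skin, was at or below background on all 4 arrays, with a difference of 0.04. Scd2 shares its probe set with a second gene symbol and was not analysed here.

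Among the elongases no member above background stood apart by more than 0.22. Elovl6, which extends palmitate to stearate, read 8.47 and 7.88 in KO, against 7.91 and 8.13 in WT, so the arrays overlapped (log2 difference 0.15, 95% interval -0.47 to 0.77). Elovl5, an elongase of polyunsaturated fatty acids, differed by 0.22 with its arrays apart. Elovl1, an elongase of very long saturated chains, differed by 0.0019 with overlapping arrays. Elovl3 is known as a cold-induced elongase of brown fat. It read 1.64 and 0.66 in KO, against 0.47 and 0.95 in WT, with 1 array of each genotype above background (log2 difference 0.44, 95% interval -0.45 to 1.32). Elovl7 lay at or below background on all 4 arrays, at -0.07 and -0.27 in KO, against 0.37 and 0.28 in WT. Its difference was -0.49 (SE 0.19, 95% interval -0.96 to -0.0297, unadjusted p = 0.0405, limma adjusted p = 0.872).

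The acyl-CoA synthetases and the enzymes of the glycerol 3-phosphate step all had differences above 0. Acsl5, which activates long-chain fatty acids, read 5.37 and 4.82 in KO, against 4.48 and 4.69 in WT, apart by genotype with a difference of 0.51 (95% interval -0.09 to 1.11). Acsl4, which prefers arachidonate, differed by 0.06. Gpd1 makes glycerol 3-phosphate from a glycolytic intermediate. It read 9.05 and 9.03 in KO, against 8.94 and 8.95 in WT, a difference of 0.10 (95% interval -0.34 to 0.53). A second, dimmer Gpd1 probe set, also above background on all 4 arrays, read 2.09 and 2.25 in KO, against 1.84 and 1.52 in WT, a difference of 0.49. The mean of both probe sets differed by 0.29. Gpd2, its mitochondrial counterpart in the glycerol phosphate shuttle, differed by 0.22. Gpd2 and the brighter Gpd1 probe set had arrays apart by genotype, with spreads between replicates of 0.08 or less. Acsl3 shares its probe set with a second symbol and Gk had none listed, so neither was analysed here.

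In the stages that acylate glycerol 3-phosphate, Agpat2 stood out by size. It encodes the main acyltransferase of adipose tissue at the lysophosphatidate stage, whose loss causes lipodystrophy. It read 8.36 and 7.98 in KO, against 7.51 and 7.22 in WT, a log2 difference of 0.80 (SE 0.23, 95% interval 0.25 to 1.35, 1.74-fold, unadjusted p = 0.0123, limma adjusted p = 0.872). Its relatives Agpat3 and Agpat5 differed by 0.18 and 0.04. Agpat4 read -0.13 and 0.13 in KO, against 0.25 and 1.23 in WT, and only WT replicate 2 was above background (log2 difference -0.74, 95% interval -1.59 to 0.11). Gpam, the mitochondrial enzyme that adds the initial acyl chain, differed by 0.25, with 7.47 and 7.46 in KO, against 7.21 and 7.22 in WT. Lpin1, the main phosphatidate phosphatase of adipose tissue, read 8.54 on each KO array, against 8.36 and 8.25 in WT, a difference of 0.24 (95% interval -0.21 to 0.68). The phosphatases Lpin2 and Lpin3 differed by 0.13 and 0.23, Lpin2 with overlapping arrays and Lpin3 with 3 of 4 arrays above background. A second, dimmer Lpin2 probe set, above background only on WT replicate 1, differed by -0.0677. The mean of both Lpin2 probe sets differed by 0.0313.

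At the last stage the enzymes that form triglyceride had smaller differences than Pnpla3, and these contrasts were not tested. Dgat2, which joins the third acyl chain to diglyceride, read 9.73 and 9.55 in KO, against 9.44 and 9.44 in WT, a difference of 0.20 (95% interval -0.26 to 0.65). Dgat1, the other enzyme of that reaction, read 5.84 and 6.30 in KO, against 5.87 and 5.58 in WT, and its arrays overlapped (log2 difference 0.34, 95% interval -0.24 to 0.93). The monoacylglycerol acyltransferases Mogat1 and Mogat2, known from liver and gut, had 2 of 4 arrays each above background and differed by 0.09 and -0.05. Pnpla3 encodes a lipid droplet protein that remodels triglyceride and is known to be induced by SREBP-1c and ChREBP in liver. It read 6.69 and 6.05 in KO, against 5.33 and 4.98 in WT. The log2 difference was 1.22 (SE 0.28, 95% interval 0.54 to 1.90), or 2.33-fold, and ranks 37 among the increases of all genes (unadjusted p = 0.00462, limma adjusted p = 0.872).

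By step, the median log2 difference was 0.65 for the 3 transcription factors, 0.64 for the 3 genes of palmitate synthesis and 0.60 for the 4 of acetyl-CoA and NADPH supply. It was 0.28 for the 2 acyl-CoA synthetases, 0.20 for the 8 genes from acylation to phosphatidate hydrolysis and 0.20 for the 5 of the triglyceride step. The lowest medians were 0.16 for the 2 genes of the glycerol 3-phosphate step, 0.15 for the 5 elongases and 0.08 for the 4 desaturases. The steps hold few genes each, and differences between steps were not tested. Some medians include members near background. Above background on all 4 arrays were 3 of 4 desaturases, 3 of 5 elongases, 6 of 8 genes from acylation to phosphatidate hydrolysis and 3 of 5 of the triglyceride step. In the other steps all measured members were.

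**Figure D3:**
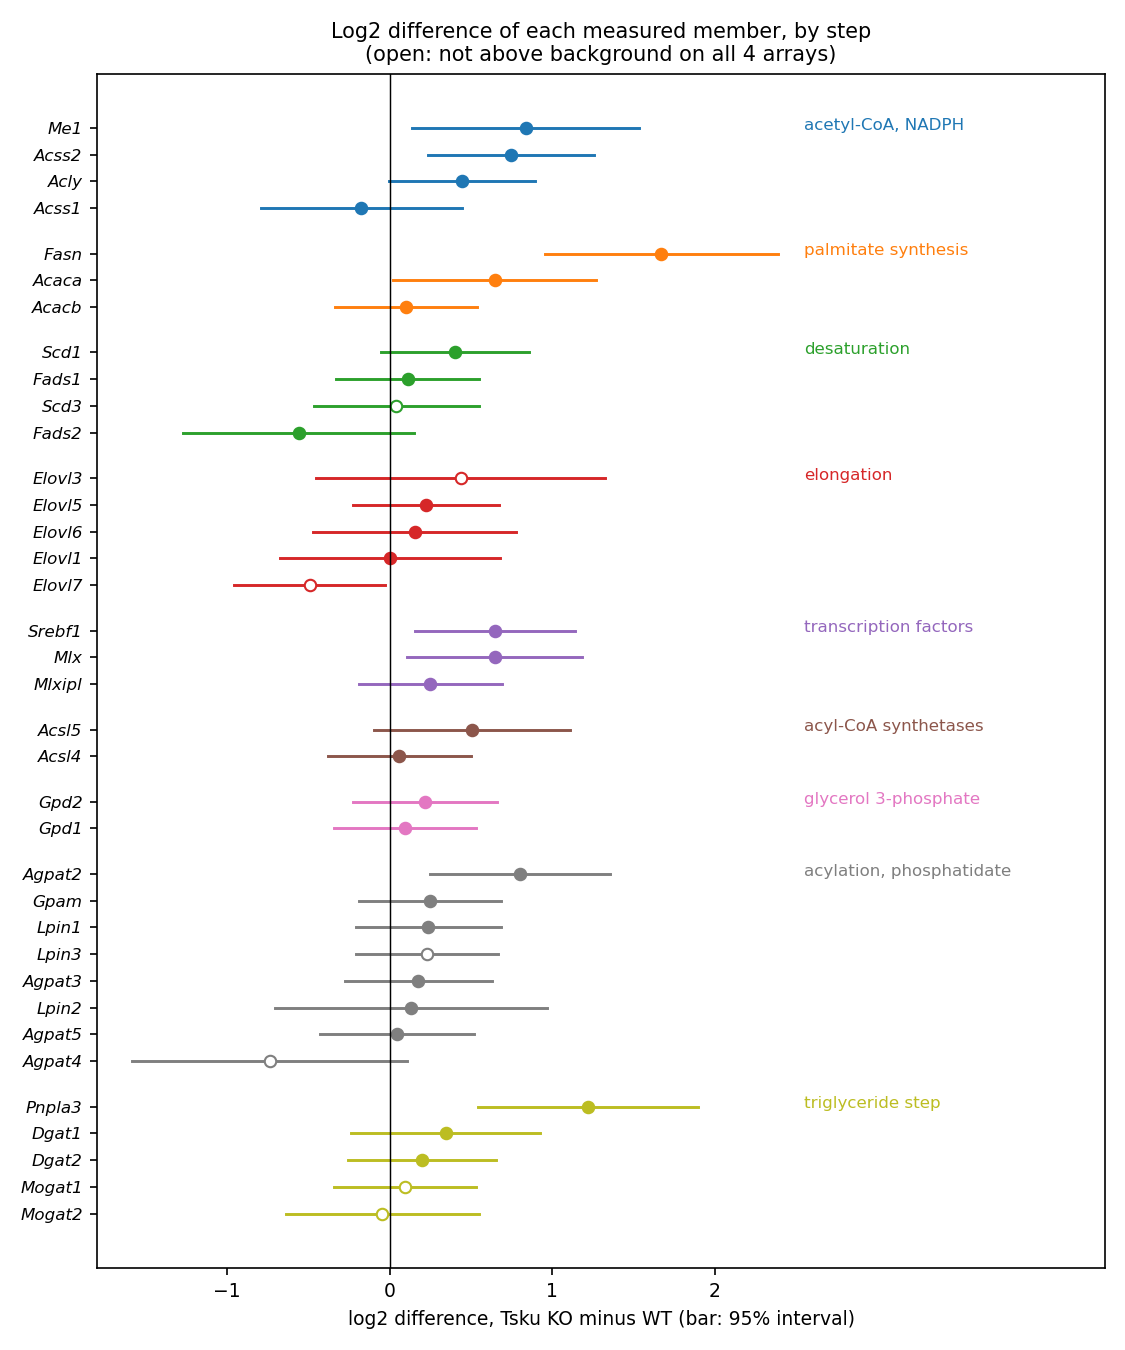
Log2 difference, KO minus WT (x axis), with its 95% interval for each of the 36 measured members, in 9 colours by step from acetyl-CoA supply at the top to the triglyceride step at the bottom. Open points mark the 7 members that are not above background on all 4 arrays. The intervals of 8 members lie wholly above 0 and that of Elovl7 wholly below it.

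The KO replicates differed from each other in a way that touched the members with large differences. Against the WT mean, Fasn was higher by 2.01 in KO replicate 1 and by 1.33 in KO replicate 2. Pnpla3 was higher by 1.54 in KO replicate 1 and 0.90 in KO replicate 2, and Me1 by 1.22 and 0.46 in the same order. Acss2 ran the other way, with 0.68 in KO replicate 1 and 0.82 in KO replicate 2. The median over all members was 0.24 on each KO array. Without KO replicate 1, 27 of 36 members were higher, against 51.4% of all genes, and the median difference was 0.24. The count with an unadjusted p under 0.05 was then 4, of which 3 were higher (Fasn, Pnpla3 and Acss2), against 2.69% of all genes. It was also 4 without WT replicate 2, all higher, against 1.88% of all genes. Of the 8 members that were higher at this level, Fasn and Pnpla3 stayed under 0.05 whichever array was left out. Agpat2 and Me1 did not without KO replicate 1 or without WT replicate 2, and Srebf1 and Acaca did not without KO replicate 1 or without WT replicate 1. Acss2 did not without KO replicate 2 or without WT replicate 2, nor did Mlx, which was also past 0.05 without KO replicate 1.

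Markers of another tissue also differed between the KO replicates. All 14 liver genes of the marker list measured higher in KO, with a median difference of 0.58, and all 14 were higher in KO replicate 1 than in KO replicate 2. Their summed log2 values were 35.0 and 22.3 on the KO arrays, against 22.9 and 17.7 on the WT arrays, so that KO replicate 2 lay within the WT range. Alb, the albumin gene of hepatocytes, read 5.77 and 4.41 in KO, against 3.68 and 2.87 in WT, and Apoa2, an HDL protein of liver, differed by 1.17. Of the 14 genes, 6 were above background on all arrays and 2, Fgg among them, on none. Liver also uses the lipogenic pathway. Against the WT mean, the median of the liver list was 0.96 in KO replicate 1 and -0.07 in KO replicate 2. Alb was higher by 2.49 in KO replicate 1 and 1.13 in KO replicate 2, and Apoa2 by 1.21 and 1.13 in the same order. The part of liver RNA in the members' values on either KO array was not tested.

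The other marker lists are given by the same measures, and differences between lists were not tested. All 16 skeletal muscle genes were lower in KO, with a median difference of -1.74 and summed log2 values of 44.6 and 27.1 in KO, against 55.9 and 64.6 in WT. All 11 measured macrophage markers were lower, with a median of -0.50 and sums of 35.3 and 44.6 in KO, against 44.7 and 46.5 in WT. All 11 were lower in KO replicate 1 than in KO replicate 2, as were all 9 endothelial markers. The 10 adipocyte markers had a median difference of 0.10, with 7 higher and sums of 84.5 and 84.8 in KO, against 83.7 and 83.4 in WT. The 10 brown adipocyte markers, Elovl3 among them, were all higher, with a median of 0.41 and sums of 60.8 and 58.6 in KO, against 54.5 and 52.3 in WT. Ucp1, the uncoupling protein of heat production, differed by 0.55 and Dio2, which activates thyroid hormone, by 2.03. The brown fat regulator Prdm16 differed by 0.999 and the proton channel gene Otop1 by 1.09. These 4 of the 10 had an unadjusted limma p under 0.05, against 2.89% of all genes higher at that level. Of the muscle list 13 of 16 reached it and of the macrophage list 1 of 11, all lower, against 2.67% of all genes. Of the liver list 2 of 14 did, both higher, and of the adipocyte and endothelial lists 0. The 9 endothelial markers had a median of 0.03, with sums of 43.0 and 47.4 in KO, against 45.5 and 44.3 in WT. The part of any of these in the members' differences was not tested.

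**Figure D4:**
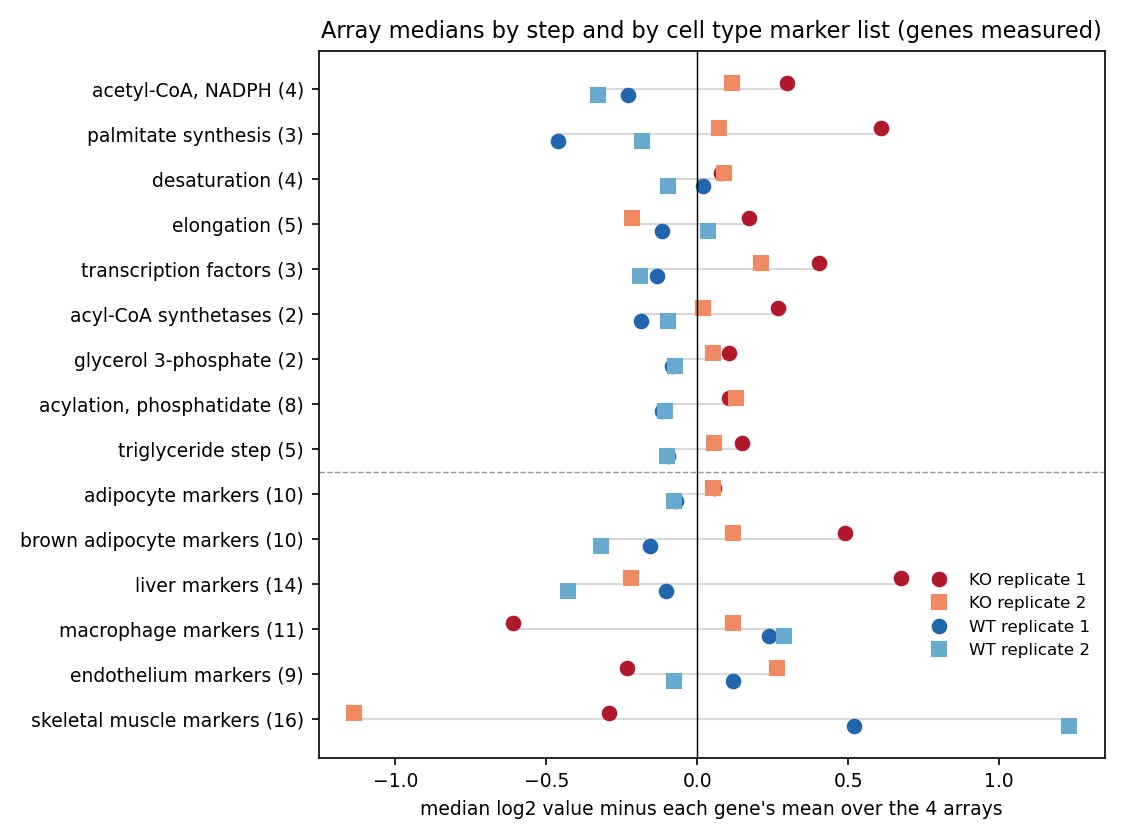
Median over the genes of each list of the log2 value minus that gene's mean over the 4 arrays (x axis), for the 9 steps above the dashed line and 6 marker lists below it, with genes measured in brackets. Circles and squares are replicates 1 and 2, red and orange KO, blue tones WT. In palmitate synthesis KO replicate 1 lies at 0.61 and KO replicate 2 at 0.07, and the liver markers lie at 0.67 in KO replicate 1 and -0.22 in KO replicate 2.

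Further genes of lipid synthesis, outside the 36, were taken as 5 lists. Of 63 measured, 47 were higher in KO, against 52.6% of all genes, with a median difference of 0.11. At an unadjusted p under 0.05 there were 4 higher, against 2.89% of all genes, and 1 lower, against 2.67%, and 0 passed the limma adjusted p. Srebf2, the SREBP of cholesterol synthesis, read 4.05 and 3.96 in KO, against 3.60 and 2.79 in WT, with WT replicate 2 far below WT replicate 1. Usf1, an E-box factor known to act on the Fasn promoter, read 1.81 and 1.88 in KO, against 1.27 and 1.26 in WT, a difference of 0.57. The desaturase relative Fads3 differed by 0.52 and Hacd2, the dehydratase of the elongation cycle, by 0.45. The gene that was lower was Fitm1, a droplet protein known mainly from muscle, with a difference of -0.97. The median of the muscle list was -1.74, and the part of muscle RNA in the Fitm1 difference was not tested. By group, the median was 0.09 for 21 other regulators, 0.16 for 10 genes of citrate, NADPH and glucose supply and 0.20 for 11 genes of elongation and desaturation. It was 0.03 for 12 other glycerolipid genes and 0.04 for 9 genes of mitochondrial fatty acid synthesis.

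The promoters shown are those of the 4 members with the smallest unadjusted limma p, and whether these genes share regulation was not tested. Each is the 250 bases before the start in RefSeq (GRCm38.p6), read in the direction of the gene. Fasn lies on the minus strand at chr11:120824548-120824797, Pnpla3 on the plus strand at chr15:84167566-84167815, Acss2 on the plus strand at chr2:155517793-155518042 and Agpat2 on the minus strand at chr2:26604418-26604667. Capitals mark exact matches, on either strand, of the NF-Y box CCAAT and the Sp1 box GGGCGG, which bind factors known to work beside SREBP.
Fasn: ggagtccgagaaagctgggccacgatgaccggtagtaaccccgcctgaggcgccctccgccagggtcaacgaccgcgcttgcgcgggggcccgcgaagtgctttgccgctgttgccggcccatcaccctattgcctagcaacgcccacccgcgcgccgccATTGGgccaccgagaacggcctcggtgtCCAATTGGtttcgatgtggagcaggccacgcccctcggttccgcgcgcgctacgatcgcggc
Pnpla3: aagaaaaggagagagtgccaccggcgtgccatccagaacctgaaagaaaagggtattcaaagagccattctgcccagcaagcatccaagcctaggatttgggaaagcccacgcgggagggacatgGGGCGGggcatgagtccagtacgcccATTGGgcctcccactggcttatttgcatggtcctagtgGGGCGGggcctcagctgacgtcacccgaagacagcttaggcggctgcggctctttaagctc
Acss2: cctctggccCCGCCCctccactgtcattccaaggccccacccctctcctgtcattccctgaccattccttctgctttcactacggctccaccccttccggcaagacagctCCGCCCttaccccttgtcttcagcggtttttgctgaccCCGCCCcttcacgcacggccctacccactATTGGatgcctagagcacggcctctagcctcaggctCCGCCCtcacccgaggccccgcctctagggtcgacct
Agpat2: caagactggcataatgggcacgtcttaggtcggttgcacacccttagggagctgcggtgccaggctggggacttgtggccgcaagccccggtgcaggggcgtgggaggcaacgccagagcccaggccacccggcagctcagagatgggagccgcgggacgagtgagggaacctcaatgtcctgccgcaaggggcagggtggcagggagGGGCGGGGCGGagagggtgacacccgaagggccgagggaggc

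Fasn had 3 NF-Y boxes, at -90, -62 and -59 from the start, the last 2 overlapping on opposite strands, and no Sp1 box. Pnpla3 had 1 NF-Y box at -99 and 3 Sp1 boxes, and Acss2 had 1 NF-Y box at -73 and 5 Sp1 boxes. Agpat2 had no NF-Y box and 3 Sp1 boxes. In each of these 3 genes 1 of the Sp1 boxes lies after the start, outside the bases shown. The sterol regulatory element TCACNCCAC and the E-box CACGTG were in none of these 4 windows, searched on both strands from 250 bases before to 50 after the start. Over 38 RefSeq promoters of 28 members (8 had no entry), the NF-Y box was in 44.7%, against 37.4% of all 32851 promoters in the table. The Sp1 box was in 19 of the 38, against 35.7%, and the E-box in 13.2%, against 7.15%. The sterol element was in 1 member promoter, of Mlxipl, or 2.63%, against 1.24%. These are letter matches and say nothing on whether a factor binds.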

How the data were processed

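Total RNA of brown adipose tissue from 2 KO and 2 WT samples was labelled with biotin and hybridised to whole-transcript arrays, per the labels' protocols. The authors deposited normalized log2 values of 41345 probe sets; RMA, oligo and limma are named without roles or versions per the submitters' processing notes, and the genome build is not given in the sources used here. Base 2 was taken from RMA. Array medians of 0.56 to 0.58 are lower than RMA usually gives, for a reason not given in the sources used here; a constant offset would leave differences as they are. Summarised values of this kind tend to compress differences at low signal.

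Platform annotation gave 1 symbol to 23521 probe sets, several to 1814 and none to 16010; the first were used, 23328 of them matched by Entrez ID. KO was compared with WT in limma 3.58.1 (R 4.3.3; lmFit, eBayes, no block or filter, two-sided, Benjamini-Hochberg over 22180 genes, adjusted p under 0.05; residual degrees of freedom 2, prior 3.96). The script was tested on simulated data. Exact permutation of 2 against 2 arrays cannot give a two-sided p below 0.333 and was not used. Members and lists were chosen with earlier results of these data known; full values are given for members with an unadjusted p under 0.05 and the brightest of each step, and for Agpat4, Elovl3, Fads2, Gpam, Acacb, Acss1 and Dgat1, chosen after their values were seen. A comparison of protein sequences was planned and not run. Alternatives covered 15 settings.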

Additional observations from a re-analysis of the deposited data

How the results depend on the processing

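Over 15 alternative settings the members' median log2 difference lay between 0.19 and 0.24. The count of members higher in KO was 31 of 36, against 52.6% of all genes. It was 32 with the mean of all probe sets and with the most variable one, against 52.7%. With the 2 filters on low values it was 29 of 31 and 30 of 33, against 50.4% of the genes kept. Without single arrays it ranged from 27 to 30, against 51.0% to 54.1% of all genes. Members with an unadjusted p under 0.05 numbered 9 (8 higher, against 2.89% of all genes). With a mean trend in the variances they numbered 16 (14 higher and 2 lower, against 3.16% of all genes higher). Without single arrays they ranged from 4 to 9, with 4 without WT replicate 2 (1.88% of all genes higher) and 4 without KO replicate 1 (2.69%). No member passed the adjusted p in any setting; the smallest was 0.186, for Fasn with a mean trend. Genes past it over the whole table numbered 0, and 1 with a replicate block, with arrays centred on their medians and with a mean trend; without single arrays they ranged from 0 to 15, with 15 without WT replicate 1 and 2 without WT replicate 2. The cause was not tested. The arrays were not treated as paired by replicate number. Deviations of KO replicate 1 and WT replicate 1 from their group means correlated at -0.0726 across genes. With 2 arrays per genotype this value cannot decide whether the arrays were paired. With the replicate block 8 members had an unadjusted p under 0.05 in limma.

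The sign turned for 8 members under at least 1 setting, all with intervals that span 0. Acss1 was 0.025 with the mean of its probe sets and 0.22 with the most variable one, and its second probe set lay below background on all 4 arrays. Without single arrays the ranges were -0.44 to 0.091 for Acss1, -0.0492 to 0.13 for Agpat5, -0.34 to 0.35 for Elovl1, -0.0529 to 0.93 for Elovl3, -0.14 to 0.44 for Elovl6, -0.27 to 0.53 for Lpin2, -0.27 to 0.18 for Mogat2 and -0.12 to 0.20 for Scd3. The other 28 members kept their sign in each setting that gave them a value; the filters on low values removed Agpat4, Elovl7 and Mogat1. Without single arrays Fasn lay between 1.33 and 2.01, Pnpla3 between 0.90 and 1.54, Me1 between 0.46 and 1.22 and Acaca between 0.36 and 0.93.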
